A study of Mus musculus with 8 samples.

Results

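The comparison described here sets the 6h libraries of a KLF4 induction experiment against its 0h libraries. The members are the libraries labelled 6h, replicates 1 and 2, and 0h, replicates 1 and 2, which makes 4 of the 8 RNA sequencing libraries of the series. All of them come from GFP-positive mouse leukaemia cells that carry MLL-AF9, a fusion oncogene of acute myeloid leukaemia, and the transgene named TetO-Klf4-AML in the labels. The tissue is given as bone marrow and the strain as C57BL/7, and the cells were sorted from leukaemic mice. The 0h cells carry the same transgene and fusion as the 6h cells, so the groups differ in the labelled time alone. The labels leave out the event that starts the clock, the clone of the leukaemia and whether replicates are separate mice. The p-values therefore reflect only library-to-library spread, which may be technical. No libraries of doxycycline-treated cells lacking the transgene were analysed here, so a response to the drug and a response to KLF4 cannot be told apart.

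KLF4 is a zinc finger transcription factor that binds GC-rich and CACCC sequences and can activate or repress genes. ATF4, the central factor of the integrated stress response, is made when translation slows through eIF2 phosphorylation, and it raises genes that import, make and charge amino acids. The unfolded protein response includes PERK, a kinase of eIF2, and so overlaps with the integrated stress response. In its other arms ATF6 and XBP1 raise the chaperones of the endoplasmic reticulum (ER). SREBP2 raises the enzymes of cholesterol synthesis when sterols run low.

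Klf4 itself, the induced gene, stood at 2.71 and 4.42 CPM, counts scaled to library size, in the 0h libraries and at 152 and 151 CPM in the 6h libraries. This was a log2 fold change of 5.39 ± 0.09 (SE) with adjusted p = 1.1e-43. The labels and the induced gene go together in all 4 libraries, and transgene and endogenous reads are counted together. Below, called means an adjusted p (Benjamini-Hochberg) under 0.05 in edgeR's quasi-likelihood F test, with 2 libraries per time. Changes are 6h against 0h on the log2 scale with their SE.

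Gene counts per library ran from 20394546 to 25706154. The replicate pairs were further apart than counting error alone gives (chi-square over its degrees of freedom 1.89 at 0h and 4.08 at 6h). Markers of leukaemic myeloid progenitors summed to 4266 and 4288 CPM at 0h and to 4031 and 4080 CPM at 6h. Of the 12, 4 were called lower (33.3%), against 8.75% of all genes tested and 19.8% of those with a mean of at least 50 CPM. Markers of erythroid cells summed to 2.82 to 4.34 CPM per library, those of T and NK cells to 4.97 to 6.73 CPM and those of B cells to 17.99 to 24.3 CPM. Macrophage markers summed to 57.4 to 70.6 CPM and mature neutrophil markers to 100 to 112 CPM. Platelet markers summed to 11.4 to 13.5 CPM and stromal ones to 44.6 to 48.1 CPM. Over all these lists of other cell types 1 marker was called higher and 3 lower. Most of these markers were too low to be tested, among them 9 of 10 stromal and 10 of 11 T and NK markers. Single genes made up nearly all of some sums. In 0h replicate 1 Pdgfrb held 44.3 of 44.6 stromal CPM, Adgre1 64.0 of 65.4 macrophage CPM and Nkg7 5.33 of 5.38 T and NK CPM. The part of other cell types in the results below was not tested.

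Of 14263 genes tested, 2664 (18.7%) were called, 1416 higher (9.93%) and 1248 lower (8.75%). With a GC and length correction that also centred the mean gene the split was 1140 higher and 1975 lower. Calls fell to 1754 without 0h replicate 1 and to 1355 without 0h replicate 2, and DESeq2 made 1570. The direction of the calls differed with expression level. Among genes with a mean under 1 CPM over the 4 libraries, 188 were called higher and 12 lower of 2638 tested. That split is partly set by the filter and the floor. The filter used all 8 libraries, so genes near 0 at 0h could enter through other times and could hardly be called lower. With only the 0h and 6h libraries 13152 genes were tested. The median SE of this lowest group was 0.526. Among the 99 genes at 1000 CPM or more, 5 were called higher and 51 lower. The 331 genes called at least 2-fold higher gained only 1592 CPM in all, and 246 of them had a 0h mean under 1 CPM. All genes called higher gained 19193 CPM together, while the levels of the genes called lower fell by 33913 CPM.

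Well expressed genes, those with a mean of at least 50 CPM over the 4 libraries, held 88.3% of the CPM at 0h. Of these 4681 genes, 1436 (30.7%) were called, 510 higher (10.9%) and 926 lower (19.8%). Only 7 of them rose 2-fold or more and 0 fell 2-fold or more, so the first response of well expressed genes lay almost wholly below 2-fold. Most of it was smaller still, with 386 genes called higher and 882 called lower where the higher level exceeded the lower by under 25%. Between 25% and 2-fold, with both 6h libraries on one side of both 0h libraries, 117 genes rose (2.5%) and 44 fell (0.94%). Among moderate changes rises thus outnumbered falls, and among the smallest changes falls outnumbered rises.

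**Figure D1:**
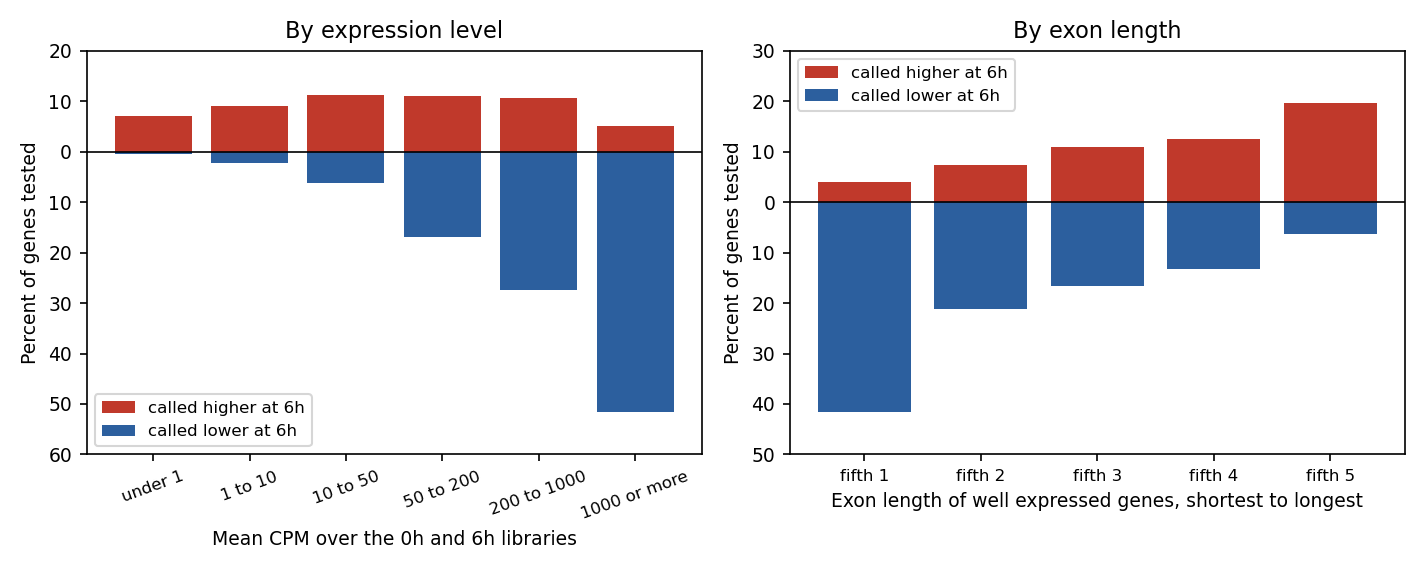
Percent of genes called higher (above the zero line) and lower (below it) at 6h against 0h, by mean CPM over the 4 libraries (left) and by exon length, in 5 equal groups, among well expressed genes (right). Falls grow with expression level, to 51 of the 99 genes at 1000 CPM or more, and the group with the shortest exon length had 38 higher and 389 lower calls against 183 and 59 in the longest.

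These small changes went with the length of a gene's exons. Split into 5 equal groups, the shortest of the well expressed genes (78 to 2857 bases) had a median change of -0.12, and there 38 genes were called higher and 389 lower of 936. In the longest group (from 8422 bases) 183 were called higher and 59 lower, and the median was 0.04. GC content divided the calls less, with 66 higher and 163 lower in the group poorest in GC and 167 higher and 158 lower in the richest. The share of fragments outside every gene feature was 5.70% and 5.25% at 0h and 6.60% and 5.81% at 6h. Whether RNA quality or library making had a part in this was not tested. Several class counts below change with the GC and length correction, and its values are then given beside them.

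The 2 largest moderate rises of well expressed genes were those of Add3 and Plec. Add3, which encodes an adducin that caps actin filaments at the membrane, stood at 94.0 and 93.6 CPM at 0h and at 190 and 180 CPM at 6h (0.98 ± 0.05, adjusted p = 8.7e-24). Plec encodes plectin, a giant linker of intermediate filaments, and went from 249 and 255 CPM to 493 and 467 CPM (0.93 ± 0.04). In both genes the 6h libraries lay far above the 0h libraries and close to each other. Kif21b, a kinesin motor gene, rose by 0.81 ± 0.05, and Clic4, a chloride intracellular channel gene, by 0.77 ± 0.04. Sun1, whose protein spans the inner nuclear membrane, rose by 0.68 ± 0.05. Vim, the gene of the filament protein vimentin, was read at 675 and 707 CPM at 0h and at 1046 and 1113 CPM at 6h (0.64 ± 0.04, adjusted p = 5.8e-18). It was the third largest gain of CPM among called genes.

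Among the other leading moderate rises, Gpt2, a mitochondrial alanine aminotransferase gene, rose from 49.6 and 50.6 CPM to 85.2 and 90.3 CPM (0.81 ± 0.05). Pck2, the mitochondrial PEP carboxykinase gene, rose by 0.79 ± 0.05 and Mthfd2, a mitochondrial folate enzyme gene, by 0.62 ± 0.04. Stc2, which encodes the secreted glycoprotein stanniocalcin 2, rose by 0.84 ± 0.06. The ATP-gated channel gene P2rx3 rose by 0.75 ± 0.05, the prostacyclin receptor gene Ptgir by 0.73 ± 0.06, the adhesion gene Ncam1 by 0.58 ± 0.05 and Rasgrp2, an activator of RAP1, by 0.59 ± 0.04. Taok1, a stress kinase gene, rose by 0.62 ± 0.05 and Dgat2, the gene of a triglyceride-forming enzyme, by 0.60 ± 0.06. Each of the 25 leading rises kept its call under all alternatives, a test against a fold of 1.2 included.

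The leading moderate falls were smaller, from -0.55 to -0.36. Hdc, which encodes the enzyme that makes histamine, stood at 111 and 119 CPM at 0h and at 79.3 and 84.8 CPM at 6h (-0.49 ± 0.05, adjusted p = 1.5e-10). Tfrc, the transferrin receptor gene of iron uptake, went from 425 and 415 CPM to 313 and 298 CPM (-0.46 ± 0.04). Hspa8, the gene of the constitutive cytosolic HSP70, went from 3842 and 3953 CPM to 2887 and 2977 CPM (-0.41 ± 0.04). This was the largest loss of CPM of any called gene. Hpgd, a prostaglandin-degrading enzyme gene, went from 1137 and 1115 CPM to 870 and 863 CPM (-0.38 ± 0.04). Egln3, an oxygen-sensing prolyl hydroxylase gene, fell by 0.47 ± 0.05, Rgs2, a brake on G protein signalling, by 0.46 ± 0.06, and Cd34, a surface marker of progenitors, by 0.38 ± 0.04. Idh1, the gene of cytosolic isocitrate dehydrogenase, fell by 0.37 ± 0.04. The respiratory chain gene Ndufb8 was called at -0.39 ± 0.09, but its call was lost with the GC and length correction and without any one of the 4 libraries, where its value ran from -0.41 to -0.36.

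**Figure D2:**
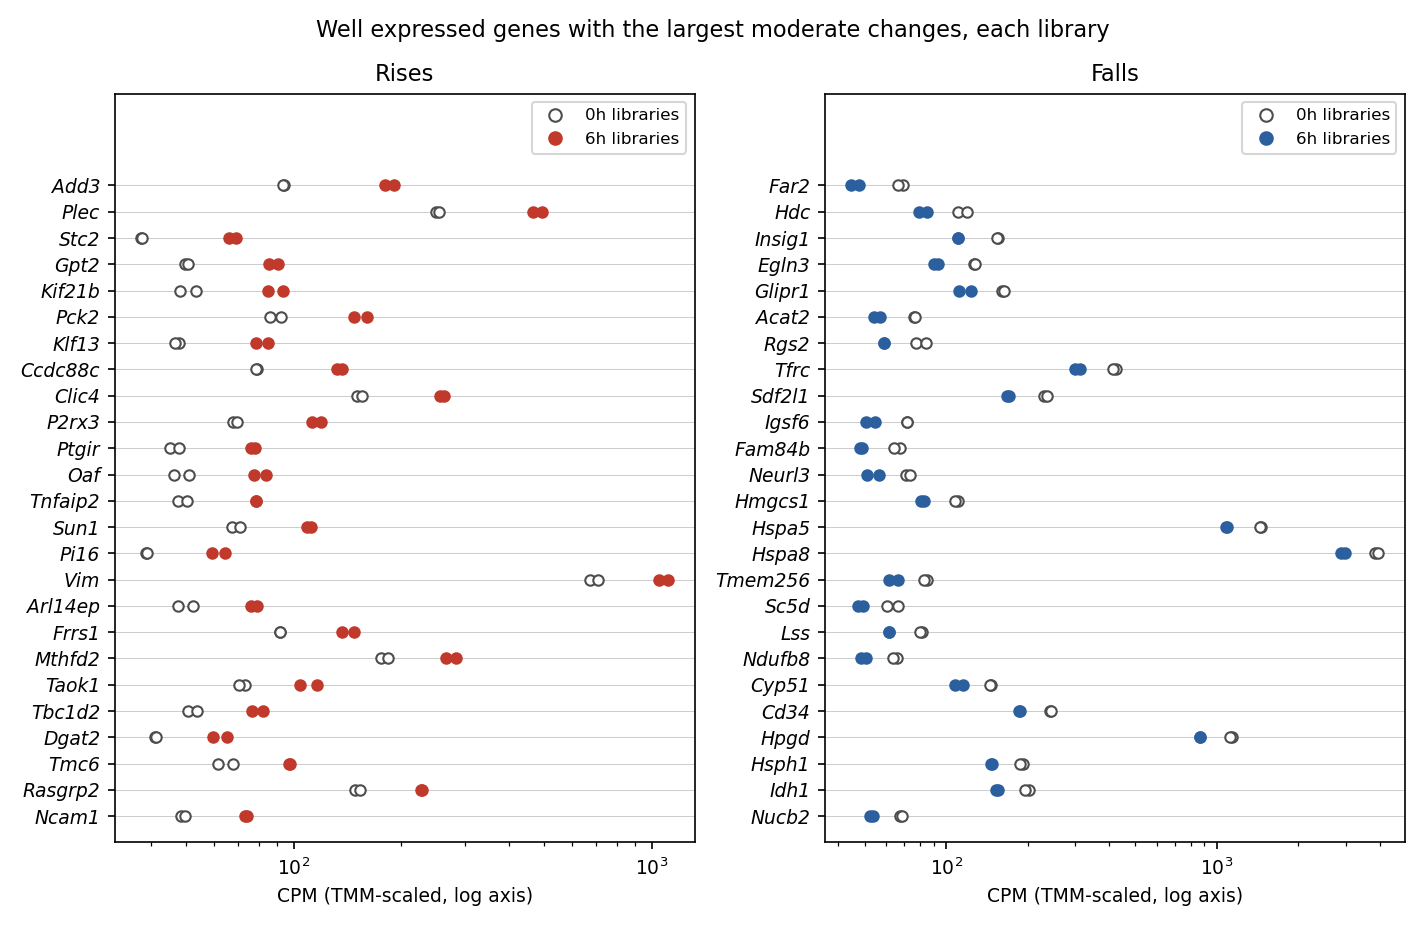
CPM in each library (log axis) of the 25 largest moderate rises (left) and 25 largest moderate falls (right) among well expressed genes, with open points for the 0h libraries and filled points for the 6h libraries. In every gene shown both 6h points lie on the same side of both 0h points, and the replicates of a time lie closer together than the times.

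Genes encoded on mitochondrial DNA did not move as one. mt-Cytb went from 2441 and 2491 CPM to 3057 and 3168 CPM (0.34 ± 0.04) and mt-Nd2 from 1199.6 and 1218 CPM to 1552 and 1665 CPM (0.41 ± 0.04). These were the largest and second largest gains of CPM among called genes. mt-Co1 was read at 7227 and 7084 CPM at 0h and 6191 and 6234 CPM at 6h (-0.20 ± 0.04), and its call was lost with the GC and length correction. Both directions are thus found among transcripts that are made from the same circular genome.

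Functional classes were described with 64 lists, of which 2457 members were tested in all, 346 called higher and 435 lower. The counts of each class below stand beside 9.93% higher and 8.75% lower calls over all genes. Over well expressed genes these shares were 10.9% and 19.8%. The ATF4 group had the largest share of members called higher of the 64 lists. Of 21 tested ATF4 pathway regulators and feedback genes, 16 were called higher and 0 lower, with a median change of 0.45 (0.41 with the correction that centres the mean gene). The median over all genes tested was -0.0036 and over well expressed genes -0.04. Atf4 itself stood at 463 and 483 CPM at 0h and at 638 and 676 CPM at 6h (0.47 ± 0.04, adjusted p = 2.5e-13). Its relative Atf5 rose by 0.52 ± 0.05. Nupr1, a stress-induced chromatin protein gene, went from 6.53 and 6.35 CPM to 17.8 and 20.4 CPM (1.57 ± 0.11). Of the kinases that phosphorylate eIF2, Eif2ak3, which encodes PERK, was called at 0.26 ± 0.06, and without 0h replicate 1 its call was lost (0.21). Sesn2, a sestrin gene that restrains mTORC1, rose by 0.44 ± 0.05, and Vegfa, an angiogenic factor gene, by 0.47 ± 0.06. Ddit3, the gene of the stress factor CHOP, was called at 0.45 ± 0.13, but not by DESeq2, without 0h replicate 2 (0.38) or without 6h replicate 2 (0.28). Ppp1r15a, which encodes the phosphatase subunit that reverses eIF2 phosphorylation, stood at 7.89 and 7.78 CPM at 0h and at 9.16 and 7.00 CPM at 6h and was not called.

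Genes of amino acid supply were also called higher in part. Of 22 amino acid transporter genes tested, 12 were called higher and 1 lower (median 0.20), and of 24 genes of serine, one-carbon and asparagine synthesis 12 higher and 2 lower (median 0.10), or 12 and 5 with the centred correction. The glycine transporter gene Slc6a9 went from 4.27 and 4.05 CPM to 12.6 and 14.8 CPM (1.72 ± 0.13). Slc1a4, for alanine and serine, went from 19.8 and 21.3 CPM to 39.6 and 43.1 CPM (1.01 ± 0.07). Among well expressed carriers, Slc7a5 (leucine and other large amino acids) rose by 0.48 ± 0.04, Slc38a2 by 0.46 ± 0.04, Slc7a1 (arginine and lysine) by 0.43 ± 0.04 and Slc1a5 (glutamine) by 0.35 ± 0.04. Asns, the asparagine synthetase gene, went from 197 and 202 CPM to 290 and 305 CPM (0.58 ± 0.04). Cth, which makes cysteine, rose by 1.199 ± 0.11 and Aldh1l2, a mitochondrial folate enzyme gene, by 1.08 ± 0.10. The first enzymes of serine synthesis, Phgdh and Psat1, rose by 0.19 ± 0.04 and 0.18 ± 0.04, less than Shmt2 at 0.42 ± 0.04. Of 23 cytosolic aminoacyl-tRNA synthetase and scaffold genes, 13 were called higher and 3 lower (median 0.18). Cars, for cysteine, stood at 101 CPM in both 0h libraries and at 140 CPM in both 6h libraries (0.47 ± 0.04), and Gars, Lars and Nars rose by 0.39 ± 0.04, 0.38 ± 0.04 and 0.33 ± 0.04. Farsa, one chain of the phenylalanine enzyme, was called lower at -0.17 ± 0.04, and its call was lost without 0h replicate 2 (-0.14), which left 0 of the 3 lower calls. Eif4ebp1, a repressor of cap-dependent translation, rose by 0.43 ± 0.05.

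The promoters of these genes were read for the composite element of ATF4 and C/EBP factors, TGATGNAA, in the 250 bases upstream of the RefSeq start (GRCm38.p6), on either strand. A single promoter sequence was on hand for 8056 of the 14263 genes tested. The element was found in 1.96% of all these promoters, in 3.27% of those of genes called higher and in 1.48% of those of genes called lower. Among the 4 classes just described it stood in 9 of 33 promoters of genes called higher (27.3%) and in 1 of 26 of the others (3.85%). With 100 bases the counts were 4 of 33 and 0 of 26. The 9 promoters are part of the 27 of 825 that hold the element among genes called higher, so the 2 shares are not separate. These classes hold genes of the kind that ATF4 raises, and the lists were chosen with earlier results of these data known. Some of the matches are printed here because they lie in genes named here, and the last belongs to a gene that was not called. Capitals mark the element, or its reverse complement, read on the gene's strand.
Asns (chr6:7693215-7693242, minus strand): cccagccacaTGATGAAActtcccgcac
Nupr1 (chr7:126625563-126625590, minus strand): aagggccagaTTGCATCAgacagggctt
Chac1 (chr2:119351039-119351066, plus strand): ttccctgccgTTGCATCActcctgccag
Slc7a11 (chr3:50443662-50443689, minus strand): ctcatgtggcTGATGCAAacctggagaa
Slc7a11 (chr3:50443643-50443670, minus strand): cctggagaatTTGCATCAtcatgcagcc
Gars (chr6:55037961-55037988, plus strand): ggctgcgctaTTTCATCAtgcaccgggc
Pycr1 (chr11:120643834-120643861, minus strand): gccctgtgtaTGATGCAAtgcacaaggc
Got1 (chr19:43524690-43524717, minus strand): attgcattggTTGCATCAtacaagcctc
Chac1, a glutathione-degrading enzyme gene, rose by 0.95 ± 0.10, Slc7a11, a cystine transporter gene with a pair of matches, by 1.58 ± 0.09, and Pycr1, a proline synthesis gene, by 0.33 ± 0.08. Got1, the cytosolic aspartate aminotransferase gene, stood at 65.0 and 66.9 CPM at 0h and at 65.8 and 68.7 CPM at 6h (0.03 ± 0.05, adjusted p = 0.77). Pck2 and Pi16, both outside these classes, also hold the element and are among the 25 leading moderate rises. A match is a description of the letters and does not show that a factor was bound.

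Genes of ER folding fell while the ATF4 group rose. Of 28 tested ER chaperone and unfolded protein response genes, 17 were called lower and 1 higher, with a median of -0.19 (-0.20 with the correction that centres the mean gene). Hspa5, the gene of the ER HSP70 called BiP, stood at 1452 and 1447 CPM at 0h and at 1092 and 1077 CPM at 6h (-0.42 ± 0.04, adjusted p = 6.7e-12). Calr, the gene of the calcium-binding chaperone calreticulin, went from 3426 and 3609 CPM to 2756 and 2812 CPM (-0.34 ± 0.04). Hsp90b1, Pdia6, Manf and Creld2 fell by 0.32 ± 0.04, 0.29 ± 0.04, 0.35 ± 0.05 and 0.33 ± 0.06. The sensor and factor genes of the ATF6 and XBP1 arms were not called: Xbp1 at -0.05 ± 0.04, Atf6 at 0.00 ± 0.05 and Ern1, the gene of IRE1, at 0.08 ± 0.05. Herpud1, which serves ER-associated degradation, was the 1 member called higher (0.49 ± 0.05), and its promoter holds the ATF4 element.

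The ER stress element, CCAAT and CCACG with 9 bases between, was found in 0.186% of all promoters and in 9 of 23 promoters of this class (39.1%). It was found in 0.985% of promoters of genes called lower (8 of 812) and in 0.121% of those of genes called higher (1 of 825). Most of the 8 belong to members of this class named here, so these shares largely repeat the class count. With 100 bases it was found in 3 of the 23. The matches of 5 chaperone genes that fell are shown with their paired boxes in capitals, on the gene's strand, and the last belongs to a gene that was not called.
Hspa5 (chr2:34772020-34772048, plus strand): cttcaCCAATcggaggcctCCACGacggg
Calr (chr8:84847070-84847098, minus strand): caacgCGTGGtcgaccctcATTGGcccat
Hsp90b1 (chr10:86705633-86705661, minus strand): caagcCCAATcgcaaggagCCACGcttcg
Hsp90b1 (chr10:86705528-86705556, minus strand): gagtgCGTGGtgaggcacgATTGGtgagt
Pdia6 (chr12:17266486-17266514, plus strand): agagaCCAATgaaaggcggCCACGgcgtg
Creld2 (chr15:88819515-88819543, plus strand): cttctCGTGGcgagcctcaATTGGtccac
Syvn1 (chr19:6046527-6046555, plus strand): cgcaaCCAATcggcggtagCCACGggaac
Syvn1, a ubiquitin ligase gene of ER-associated degradation, holds the element and was not called (62.3 and 64.6 CPM at 0h, 61.4 and 57.9 CPM at 6h, -0.09 ± 0.06), though it was with the GC and length correction (-0.19). Canx and Dnajc3, called lower at -0.15 ± 0.04 and -0.18 ± 0.04, and Derl3, which was not called, hold the element too. The call of Canx was lost without 0h replicate 1 (-0.13) and that of Dnajc3 without 6h replicate 2 (-0.12). The CCAAT box alone, which the longer element contains, stood in 36.9% of all promoters, in 42.2% of those of genes called lower and in 33.5% of those of genes called higher. The CACCC core, which KLF factors can bind, stood in 56.2%, 50.5% and 64.7% of the same sets, and its longer form CCACACCC, which contains it, in 3.75%, 3.69% and 5.70%. The promoters of genes called higher were also richer in GC, with a median of 63.6% against 58.4% for genes called lower and 60.0% for all, and the part of base composition in these shares was not tested. The palindromic E-box CACGTG stood in 8.54% of all promoters, in 7.15% of those called higher and in 9.48% of those called lower, and the CArG box in 1.09%, 1.33% and 1.48%.

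Other steps of the secretory route were lower as well. Of 44 genes of ER translocation and glycosylation 18 were called lower and 0 higher (median -0.09), and of 50 genes of ER to Golgi traffic 21 lower and 0 higher (median -0.11). Ssr2, a subunit gene of the translocon-associated complex, went from 347 and 358 CPM to 276 and 299 CPM (-0.29 ± 0.04). Sec24d, a cargo adaptor gene of COPII vesicles, fell by 0.31 ± 0.05 and Arf1, a GTPase gene of Golgi coats, by 0.21 ± 0.04. These counts rest on small changes. The lower shares of 40.9% and 42% stand beside 19.8% of well expressed genes and 41.6% of the well expressed group with the shortest exons. Dropping 0h replicate 1 gave 9 and 12 calls, dropping 0h replicate 2 gave 11 and 6, and dropping 6h replicate 1 gave 10 and 13, and DESeq2 gave 13 for the second.

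Cholesterol synthesis had the largest share of members called lower of the 64 lists. Of 25 tested genes of the pathway and SREBP2 targets, 21 were called lower and 0 higher, with a median of -0.25 (-0.30 with the correction that centres the mean gene). Lss and Sc5d, enzymes of the later steps, fell by 0.39 ± 0.05 and 0.39 ± 0.06, and Pmvk, of the mevalonate steps, by 0.35 ± 0.07. Srebf2, the gene of SREBP2, stood at 304 and 303 CPM at 0h and at 289 and 296 CPM at 6h and was not called, though it was with the GC and length correction (-0.21). Of the genes of fatty acid synthesis and elongation, 6 of 21 were called lower and 1 higher, and the count of lower calls was 10 with the GC and length correction. Fads2 and Elovl6, a desaturase and an elongase gene, fell by 0.35 ± 0.05 and 0.36 ± 0.05, while Cpt1a, the gate of mitochondrial fatty acid oxidation, rose from 46.9 and 51.0 CPM to 74.9 and 70.8 CPM (0.57 ± 0.06).

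Protein turnover and synthesis showed many small falls. Proteasome subunit genes were called lower in 32 of 40 and higher in 0 (median -0.16). With the GC and length correction 22 were called lower (median -0.11), and 27 with the centred form. Ribosomal protein genes were called lower in 43 of 77 and higher in 0 (median -0.14), with 32 lower in the centred form (median -0.11). Heat shock and cytosolic chaperone genes were called lower in 15 and higher in 1 of 32 (median -0.11). The lower shares were 80% for the proteasome, 55.8% for ribosomal and 46.9% for heat shock genes. They stand beside 19.8% of well expressed genes and 41.6% of the well expressed group with the shortest exons, where the median was -0.12. Psmb6, a catalytic proteasome subunit gene, went from 165 and 166 CPM to 129 and 141 CPM (-0.29 ± 0.05), and Psmc1, an ATPase subunit gene, from 321 in both 0h libraries to 278 and 273 CPM (-0.22 ± 0.04). The immunoproteasome subunit gene Psmb9 was called at -0.30 ± 0.07 and lost its call without 0h replicate 1 (-0.23). Among chaperones Hsph1 fell by 0.37 ± 0.04 and Hspe1, of the mitochondrial chaperonin, by 0.28 ± 0.05, while Fkbp5, a cochaperone gene and glucocorticoid target, rose by 0.21 ± 0.04. Of ribosomal genes 24 were called lower with the GC and length correction, and leaving out 0h replicate 2, 6h replicate 1 or 6h replicate 2 gave 11, 15 and 68. For the proteasome these were 19 (0h replicate 2) and 21 (6h replicate 1), and 5 heat shock genes were called lower when 0h replicate 2 was left out. Near-identical processed copies of ribosomal protein genes make their counts uncertain.

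In the tricarboxylic acid cycle 9 of 27 genes were called lower and 0 higher, though 5, 3 and 5 when 0h replicate 1, 0h replicate 2 and 6h replicate 1 in turn were dropped. In glycolysis 7 of 26 were called lower and 2 higher, with 12 lower under the GC and length correction and 0 without 0h replicate 2. Pfkp, a phosphofructokinase gene, rose by 0.29 ± 0.04. Of 28 iron and haem genes 8 were called lower and 0 higher, among them Alas1, the first enzyme of haem synthesis (-0.30 ± 0.04), and the count was 5 with DESeq2 or in a fit of the 4 libraries alone and 4 without 0h replicate 2. NRF2 and glutathione genes had 11 lower and 4 higher calls of 41, with 5 lower by DESeq2, 6 in a fit of the 4 libraries alone, 7 without 0h replicate 1, 2 without 0h replicate 2 and 3 without 6h replicate 1. Slc7a11 and Chac1, also known as ATF4 targets, were among the 4 that rose, and Gsr and Sod1 fell by 0.19 ± 0.04 and 0.23 ± 0.04. Whether ATF4 had a part in this was not tested. Lower calls made up 33.3% of the tricarboxylic acid cycle genes, 26.9% of glycolysis, 28.6% of iron and haem and 26.8% of NRF2 genes. They made up 8.75% of all genes, 19.8% of well expressed genes and 41.6% of the well expressed group with the shortest exons.

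**Figure D3:**
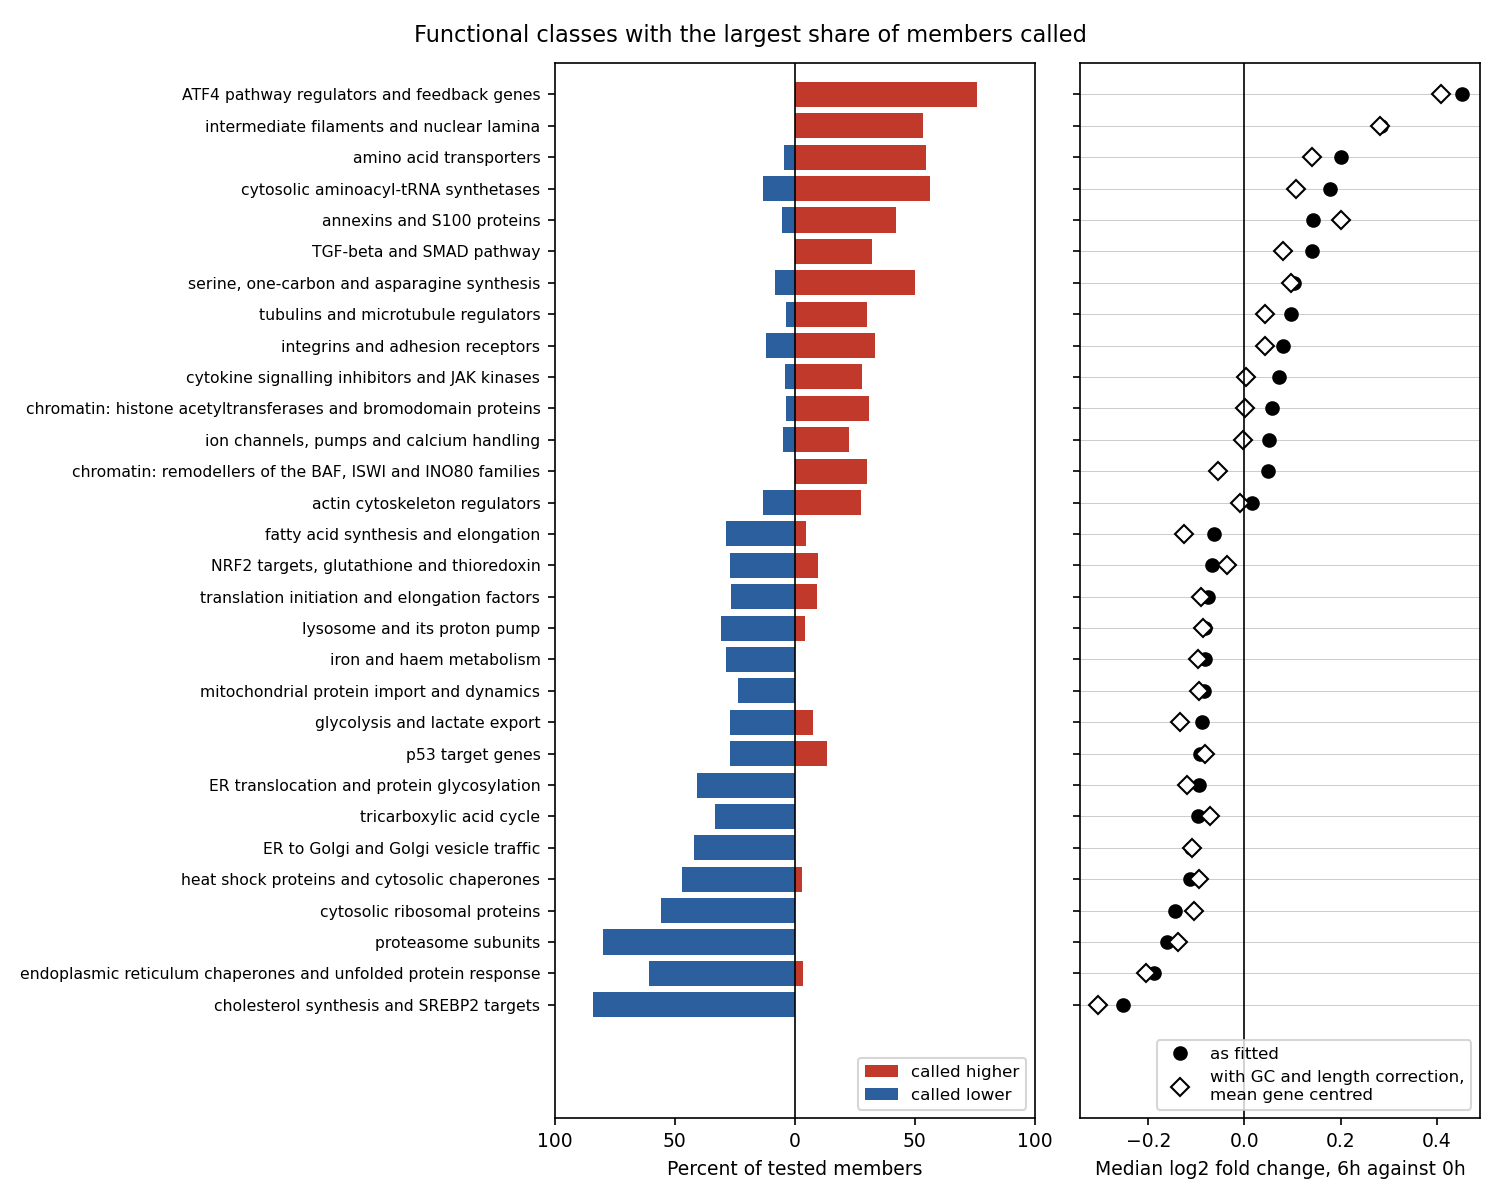
The 30 functional classes with the largest share of members called in either direction among the lists shown here with at least 10 tested members, ordered by median change. Bars give the percent of tested members called higher (right) and lower (left), filled points the median log2 fold change as fitted and open diamonds the median with the GC and length correction that centres the mean gene. The ATF4 class (median 0.45) and the cholesterol class (median -0.25) lie at the ends under both, and the actin, remodeller and ion channel medians lie above 0 as fitted and below 0 with the correction.

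Structural classes rose in part. Of 15 genes of intermediate filaments and the nuclear lamina 8 were called higher and 0 lower (median 0.28, the same with the correction). Lmna, the gene of lamins A and C, went from 10.7 and 13.4 CPM to 21.95 and 26.8 CPM (1.02 ± 0.10). Syne2 and Syne3, whose proteins tie the nucleus to the cytoskeleton, rose by 0.59 ± 0.09 and 0.46 ± 0.06. Prph, a neuronal filament gene, had 4 and 3 counts at 0h and 35 and 29 at 6h. Of 19 annexin and S100 genes 8 were called higher and 1 lower (median 0.14). S100a10 went from 30.7 and 32.3 CPM to 58.6 and 62.5 CPM (0.95 ± 0.06), and its partner Anxa2 from 134 and 142 CPM to 170 and 182 CPM (0.35 ± 0.04).

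Among 33 integrin and adhesion genes 11 were called higher and 4 lower (median 0.08), or 7 higher by DESeq2, 12 and 2 with the GC and length correction, and 9 and 1 without 0h replicate 2. Itga6, the laminin receptor chain gene, rose by 0.39 ± 0.04 and Cd44, a hyaluronan receptor gene, from 245 and 243 CPM to 317 and 298 CPM (0.33 ± 0.04). Of 53 tubulin and microtubule genes 16 were called higher and 2 lower (median 0.10), or 10 and 1 by DESeq2 and 10 and 6 with the correction that centres the mean gene. Tuba1a rose by 0.34 ± 0.05 and Klc2, a kinesin light chain gene, by 0.70 ± 0.08. Actin regulators had 23 higher and 11 lower calls of 83 and a median of 0.02 that turned to -0.01 with the centred correction (18 and 21 calls). Without 0h replicate 2 the falls numbered 4. Flna, the gene of the actin crosslinker filamin A, stood at 809 and 827 CPM at 0h and at 1186 and 1150 CPM at 6h (0.51 ± 0.04). Myo1g, a haematopoietic myosin gene, rose by 0.43 ± 0.04. Myh9, the nonmuscle myosin heavy chain gene, was called at 0.19 ± 0.04, a direction that turned with the GC and length correction, to -0.0003178.

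Of 41 G protein-coupled receptor genes of myeloid cells 7 were called higher and 9 lower, or 6 and 5 by DESeq2 and 6 and 3 without 0h replicate 2. As fitted these were 17.1% higher and 22% lower, against 9.93% and 8.75% of all genes. S1pr4, a sphingosine phosphate receptor gene of leukocytes, went from 12.8 and 14.1 CPM to 48.3 and 55.2 CPM (1.94 ± 0.08), and Gpr141, an orphan receptor gene, from 92.8 and 91.1 CPM to 139 and 129 CPM (0.54 ± 0.05). Kcnn4, a calcium-activated potassium channel gene, went from 6.18 and 7.55 CPM to 29.7 and 30.5 CPM (2.13 ± 0.10). Eng, an accessory receptor of TGF-beta, rose from 4.47 and 4.14 CPM to 11.3 and 12.4 CPM (1.47 ± 0.13). Its class had 9 higher (32.1%, against 9.93% of all genes) and 0 lower calls of 28. Id3, an inhibitor of bHLH factors in the same class, went from 0.201 and 0.46 CPM to 1.57 and 1.61 CPM (2.23 ± 0.41). Notch1 rose from 58.9 and 58.7 CPM to 79.9 and 82.9 CPM (0.47 ± 0.05) and the Notch ligand gene Jag2 by 1.77 ± 0.18, in a class with 9 higher and 0 lower calls of 45. That class had 5 and 0 by DESeq2, 7 and 3 with the GC and length correction and 7 and 5 with the centred form. Ccnd3, a D cyclin gene, went from 202 and 206 CPM to 284 and 310 CPM (0.54 ± 0.04). Ifngr1, a chain of the interferon gamma receptor, fell from 456 and 458 CPM to 365 and 376 CPM (-0.30 ± 0.04).

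Among 37 p53 target genes 10 were called lower and 5 higher, with 6 lower without 0h replicate 2. As fitted, 27% of this class were called lower and 13.5% higher. These shares stand beside 8.75% and 9.93% of all genes and 19.8% and 10.9% of well expressed genes. Bax, a death effector gene of the BCL2 family, went from 236 and 247 CPM to 201 and 213 CPM (-0.22 ± 0.04). Sesn1 fell by 0.38 ± 0.07, while its paralog Sesn2 rose. Pmaip1, the gene of the death activator NOXA, rose from 76.2 and 71.8 CPM to 96.7 and 91.5 CPM (0.35 ± 0.05). Of 47 genes of G1 to S phase 6 were called higher (12.8%) and 5 lower (10.6%), and of 50 mitosis genes 5 higher and 3 lower, shares near the 9.93% and 8.75% of all genes. The G1 to S median of -0.01 turned to 0.0037 with the GC and length correction (5 and 3 calls). Leaving out 0h replicate 2 gave 4 and 1, and 2 and 0. Brca2, a DNA repair gene, went from 31.7 and 33.1 CPM to 53.1 and 50.4 CPM (0.67 ± 0.06).

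Counts of chromatin genes changed with the GC and length correction. As fitted, remodellers had 12 higher and 0 lower calls of 40 (median 0.05), but 4 and 3 with the GC and length correction, which turned the median to -0.03. Lysine methyltransferases and demethylases had 11 and 1 of 50 (median 0.03), but 4 and 4 with that correction (median -0.03). Histone deacetylase complexes had 6 and 2 of 34, or 3 and 4 with the GC and length correction and 2 and 6 with the centred form, which turned the median of 0.07 to -0.02. There were 8 and 1 of 26 among acetyltransferases and bromodomain proteins, or 3 and 3 with either correction. Leaving out 0h replicate 2 gave 3 higher calls for remodellers and 5 for methyltransferases and demethylases, and leaving out 0h replicate 1 gave 1 for deacetylase complexes. Among members that kept their calls under both corrections, Kmt2a, whose gene is broken in MLL fusions, went from 126 and 114 CPM to 154 and 135 CPM (0.26 ± 0.05) and Hdac1 from 283 and 282 CPM to 243 and 246 CPM (-0.21 ± 0.04). Reads of the cells' own Kmt2a and of a fusion that uses its sequence may not be separated.

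Of 385 tested factor genes 88 (22.9%) were called higher against 9.93% of all genes, and 27 (7.01%) lower against 8.75%. The total of 115 became 76 without 0h replicate 1 and 71 without 0h replicate 2. Their median change was 0.06, and of the 147 well expressed factors 37 were called higher and 20 lower. The shares of factors called are given as fitted only. Correcting for GC and length took falls of bHLH factors from 5 to 10, or 12 in the centred form. Those of the E2F, RFX, NFY, NFI and p53 families went from 0 to 5, or 7. Rises in each of these lists went from 9 to 8, or 7. No factor list had fewer falls under either form, and falls of all genes went from 1248 to 1496, or 1975. Whether factors still fell less often than all genes was not tested there. The KLF and SP family had 8 higher and 0 lower calls of 16 tested (median 0.21, or 0.14 with the centred correction). Klf3, a repressor that binds CACCC boxes, rose by 2.30 ± 0.08. Klf10 and Klf11, which recruit SIN3 corepressors, went from 20.6 and 18 to 40.04 and 36.04 CPM (0.98 ± 0.08) and from 2.56 and 2.30 to 6.25 and 5.90 CPM (1.32 ± 0.18). Klf13 rose from 47.7 and 46.6 CPM to 84.9 and 78.6 CPM (0.79 ± 0.05). Klf9 was called at 0.42 ± 0.09 and lost its call without 0h replicate 2 (0.27). Klf2 and Klf6, at -0.15 ± 0.16 and -0.23 ± 0.10, were not called.

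Basic leucine zipper factors of the AP-1, ATF and CREB families had 12 higher and 3 lower calls of 35, or 13 and 5 with the GC and length correction. Jdp2, a repressor of AP-1 and ATF sites, went from 32.1 and 32.3 CPM to 51.8 and 52.6 CPM (0.70 ± 0.06). Junb rose from 58.0 and 56.2 CPM to 79.8 and 75.6 CPM (0.44 ± 0.05), Jund by 0.37 ± 0.07 and Nfe2l1, which controls proteasome genes, from 225 and 234 CPM to 299 and 304 CPM (0.39 ± 0.04). Jun was low, with 26 and 34 counts at 0h and 66 and 64 at 6h (0.96 ± 0.23), and Fos had 23 and 31 counts at 0h and 9 and 14 at 6h (-1.38 ± 0.37), a call lost without 0h replicate 2 (-1.215). Batf, a partner of IRF factors, fell from 31.9 and 34.6 CPM to 23.9 and 26.99 CPM (-0.38 ± 0.08).

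C/EBP factors, which drive myeloid maturation, moved apart. Cebpb went from 70.0 and 73.1 CPM to 95.5 and 98.2 CPM (0.44 ± 0.07) and Cebpg, a partner of ATF4, by 0.34 ± 0.05, while Cebpd fell from 52.6 and 57.6 CPM to 41.2 and 42.5 CPM (-0.40 ± 0.06). Cebpa stood at 292 and 298 CPM at 0h and at 305 and 330 CPM at 6h, and at adjusted p = 0.078 was not called. Haematopoietic factors were likewise mixed, with 7 higher (25%) and 4 lower (14.3%) calls of 28, against 9.93% and 8.75% of all genes. With the GC and length correction these were 7 and 7, and 6 and 9 with the centred form, and the median turned from 0.0043 to -0.03. Zfpm1, the GATA partner FOG1, rose from 19.2 and 20.5 CPM to 28.0 and 31.0 CPM (0.57 ± 0.08), and Lmo4 by 0.45 ± 0.05. Gfi1, a transcriptional repressor gene that granulocyte development requires, went from 225 and 227 CPM to 189 CPM in both 6h libraries (-0.26 ± 0.04). Its paralog Gfi1b, with 6 and 13 counts at 0h and 34 and 41 at 6h, was called higher. Myb, a factor on which MLL-AF9 leukaemia is known to depend, went from 585 and 581 CPM to 508 and 499 CPM (-0.21 ± 0.04). Spi1, the master regulator PU.1, stood at 246 and 259 CPM at 0h and at 254 and 261 CPM at 6h and was not called.

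Other factors with clear changes belong to several families. E2f2, a cell cycle activator, went from 56.5 and 51.9 CPM to 119 and 123 CPM (1.16 ± 0.05) and was one of the 7 well expressed genes that rose 2-fold. Rarg, a retinoic acid receptor gene, rose from 11.6 and 11.9 CPM to 19.997 and 23.6 CPM (0.90 ± 0.09), and Erf, an ETS repressor, by 0.66 ± 0.13. BTB zinc finger genes had 10 higher calls and 1 lower of 40, or 6 higher by DESeq2, 5 without 0h replicate 2, and 8 and 4 with the centred correction. Zbtb7a, a repressor of fetal globin, rose from 117 CPM in both 0h libraries to 161 and 156 CPM (0.44 ± 0.04) and Zbtb7b by 0.47 ± 0.05. Tfec, a relative of the lysosomal factor TFEB, fell from 92.8 and 90.8 CPM to 72.8 and 70.2 CPM (-0.36 ± 0.05), and Ets1 from 181 CPM in both 0h libraries to 147 and 144 CPM (-0.32 ± 0.04). Srf, which controls actin genes, fell by 0.21 ± 0.04, and Max, the partner of MYC, by 0.19 ± 0.05. Myc stood at 252 and 267 CPM at 0h and at 257 and 256 CPM at 6h and was not called. Some factors left almost no counts at 0h: the TEAD family gene Tead3 had 0 and 2 counts at 0h and 15 and 25 at 6h.

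**Figure D4:**
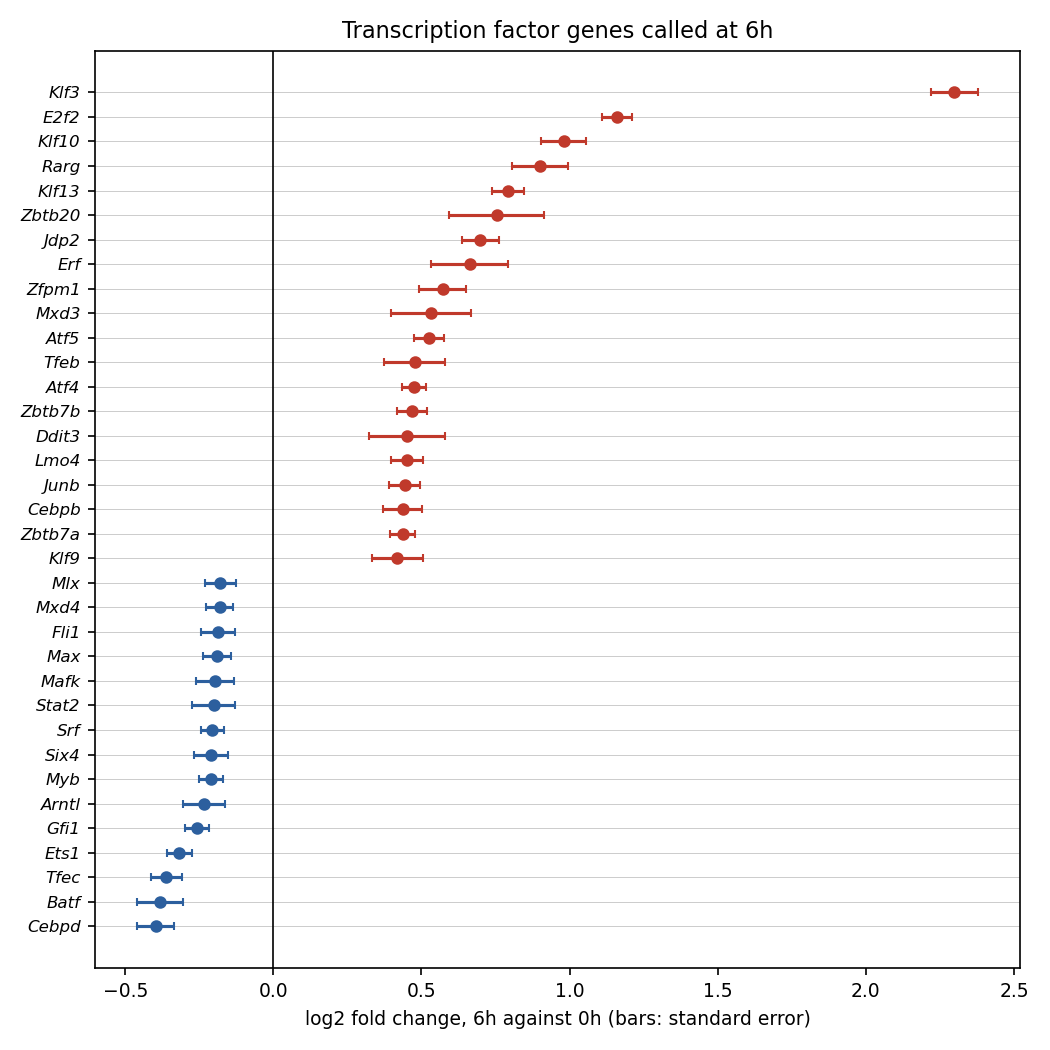
Log2 fold change from 0h to 6h with its standard error for the 20 largest rises and 15 largest falls among called transcription factor genes with a mean of at least 5 CPM and groups that did not overlap, Klf4 left out. Rises reach 2.30 (Klf3) and 1.16 (E2f2), while the largest fall is -0.40 (Cebpd).

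Genes of the MLL-AF9 programme, which the fusion keeps on, had 7 lower (21.9%) and 3 higher (9.38%) calls of 32 (median -0.09). These shares lie near those of well expressed genes, 19.8% and 10.9%, and 19 of the 32 are well expressed. Hoxa9, a direct target of the fusion, stood at 422 and 405 CPM at 0h and at 406 and 398 CPM at 6h, and its cofactor gene Meis1 at 126 and 123 CPM and then 117 and 118 CPM. Neither was called (-0.04 ± 0.04 and -0.08 ± 0.05), though Meis1 was with the GC and length correction (-0.11). The class count of falls was 3 by DESeq2 and with no filter on low counts, 2 in a fit of the 4 libraries alone, without 0h replicate 1 or without 0h replicate 2, 4 without 6h replicate 2 and 11 with the centred correction.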

How the data were processed

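RNA sequencing of 8 libraries was deposited as raw counts per Ensembl gene, made by the authors with STAR, SAMtools 1.3 and HTSeq 2.0.3 on mm10, per the submitters' processing notes. The sources used here give no annotation, strand setting or STAR version, so overlapping and antisense genes are not told apart with certainty. Each file held 47069 gene rows; 5 summary rows were left out. Names came from GENCODE M21. Counts of all 8 libraries (0h, 6h, 12h, 24h) entered 1 edgeR 4.0.16 robust quasi-likelihood fit in R 4.3.3, after filterByExpr by time and TMM scaling. Residual degrees of freedom were 4, with a common biological variation of 3.10%. The SE is the log2 fold change divided by the square root of F. Tests were two-sided. Members and lists were chosen with earlier results of these data known. Genes were named by rule: Klf4, the 25 largest moderate rises and falls of well expressed genes, 20 and 15 transcription factors, 10 gains and 10 losses of CPM, up to 5 members per class by adjusted p, and members at the ends of a class or with a role in it, the last chosen after their values were seen. Alternatives included DESeq2 1.42.0, other scaling and filters, a replicate block, GC and length corrections, a test against a fold of 1.2 and leaving out each library. The fit was also run on simulated counts with the same spread for all genes and no length trend. That run does not tell how the spread at 6h or the length trend bears on the small changes. Some genes, a class and a sequence are not reported here.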

Additional observations from a re-analysis of the deposited data

Results flagged for a closer look

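Fragments counted to no gene feature, which no comparison above uses, made up 6.206% of all fragments on average at 6h (SD 0.556, n = 2) against 5.47% (SD 0.316, n = 2) at 0h, and this was listed because it lies outside the gene counts and above the level of the 0h libraries. The gap is about the size of the spread between replicates, and what these fragments are was not tested. In the later libraries of the same fit the share was higher, at 8.31% and 8.95% at 12h and 9.04% and 9.27% at 24h.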

How the results depend on the processing

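Tested against a fold of 1.2, 473 genes were called (437 higher and 36 lower), with 97 well expressed genes of moderate change, 31 transcription factor genes and 114 class members. DESeq2 called 1570 genes. Leaving out 1 library gave 1355 to 2783 genes, 71 to 109 transcription factor genes, 417 to 841 class members and 159 to 233 moderate changes; a library left alone at its time is assumed to vary like the others. Moderate changes numbered 290 at a level of at least 20 CPM and 69 at 100 CPM, against 161. The direction of Myh9 turned with the GC and length correction (-0.0003178, or -0.0242 with the mean gene centred) and that of Setd1b with the centred form (-0.0067); their calls ended there too. Of 417 named genes that were called, 284 kept call and direction under all alternatives but the test against a fold, and 142 under that as well. With the replicate number as a block 2593 genes were called. Deviations of same-numbered libraries correlated at 0.25 between 0h and 6h, the times compared here, and at -0.21 to -0.01 between other times. The labels do not say that the numbers pair libraries, so the main fit took none as pairs. Depth limits the genes under 1 CPM most: 3 counts equal 0.117 to 0.147 CPM.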
